A study of Mus musculus with 1931 samples.

Results

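The 9 genes described here were Dock10, Sub1, Hmgn2, Mkrn1, Spp1, Pla2g7, Ckb, Bex1 and Calcoco2, out of 20999 genes in the expression table. They were selected on the difference of their mean expression between cells of 3D mouse embryo-like structures and cells of the matching 2D culture, which was among the largest in at least 1 comparison, so the 3D to 2D differences given below describe how the genes were picked and were not tested. Plate and well row did not enter the choice and are described separately. Variation from cell to cell within a group is described as well. It shapes the group means on which the genes were picked, so it is not independent of the choice. Differences between compartments are described too. The mean of each compartment entered its comparison, so they are not independent of the choice.

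RtL-embryoids (Rosette-to-Lumen stage embryoids) were aggregates of mouse embryonic stem cells (ESC) in which some of the cells carried doxycycline-inducible transgenes. They combined Kermit ESC with an Oct3/4 reporter driving GFP, 5-Factor ESC with inducible Cdx2, Tfap2c, Eomes, Gata3 and Ets2, and mCherry-labelled ESC with inducible Gata6. The 3D co-cultures, Kermit cells included, and the inducible lines in 2D received 2 µg/ml doxycycline, which was withdrawn before harvest. Hand-picked structures were pooled, dissociated and sorted by GFP (Epi-like), mCherry (VE-like, visceral endoderm) or CD40 staining (ExE-like, extraembryonic ectoderm), and single cells were profiled by SMART-seq2, a full-length plate-based method. The 2D arms were Kermit ESC in 2i/LIF medium, which got no doxycycline, iXEN cells made from the Gata6 line in XEN medium, and iTSC made from the 5-Factor line in TSC medium with FGF4 and heparin. Each 3D group and its 2D counterpart thus derived from the same engineered line, and differed in medium, in culture format and in plate, and the Epi cells and ESC also in doxycycline.

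The 3D cells filled plates 3, 4 and 5, with Epi-like cells in well columns 1 to 8, VE-like cells in columns 9 to 16 and ExE-like cells in columns 17 to 24. This assignment by column came from the definition of the gene set, since the sample labels name only the pool. Each 2D culture lay on 1 plate of its own. There was therefore 1 sample per condition, the 3 plates of 3D cells were technical splits of 1 pool, and plate and culture format cannot be told apart. No p-value could be given. Wells with fewer than 2500 detected genes were left out, and 982 cells of 3D and 424 of 2D remained, namely 314 Epi, 315 VE and 353 ExE cells, 142 ESC, 141 iXEN cells and 141 iTSC. The median number of genes per cell ranged from 4823 to 5396 in the 3D groups and from 8537 to 9093.5 in 2D. Levels are TP10k, the deposited TPM rescaled to a sum of 10000 in each cell.

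The well columns were checked against marker genes. The Epi marker list had the highest mean of the 3 lists in 312 of 314 cells of the Epi columns (99.4%, exact 95% interval 97.7 to 99.9), and the VE list led in 311 of 315 cells of the VE columns (98.7%, 96.8 to 99.7). The ExE list led in 249 of 353 cells of the ExE columns (70.5%, 65.5 to 75.2) and in 107 of 141 iTSC (75.9%, 68.0 to 82.7). The ExE columns thus agreed less well with their label, and 64 of their cells had the Epi list and 40 the VE list on top. These intervals, and all others below, cover counting error only. The 8 fibroblast markers summed to between 0.0137 and 0.0615 TP10k in the 6 groups, with 6 of them under 0.01 in all groups, and the 6 macrophage markers to between 0.192 and 0.592, with 4 under 0.01.

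The genes act in unrelated processes. Dock10 is a guanine nucleotide exchange factor that acts on the actin cytoskeleton. Sub1 encodes a DNA-binding coactivator of RNA polymerase II, and Hmgn2 a nucleosome-binding protein that loosens chromatin. Mkrn1 is a RING-type ubiquitin ligase with RNA-binding zinc fingers. Spp1 encodes osteopontin, a secreted ligand of integrins and CD44 that is made at the embryo-uterus interface, among other tissues. Pla2g7 is the secreted hydrolase that inactivates platelet-activating factor. Ckb, the cytosolic creatine kinase, buffers ATP. Bex1 is a small X-linked adaptor protein best known from neurons, and Calcoco2 (NDP52) is a receptor for selective autophagy.

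Mean Dock10 levels were high in every 3D compartment and low in every 2D culture. In Epi columns its mean was 5.01 TP10k on plate 3, 2.69 on plate 4 and 8.05 on plate 5, against 0.660 in ESC. In VE columns the means were 4.55, 3.17 and 9.39 on the same plates, against 0.384 in iXEN cells. In ExE columns they were 6.62, 2.82 and 7.41, against 0.305 in iTSC. Every plate of 3D cells thus lay above every 2D culture, and the order of the plates was the same in each compartment, with plate 4 lowest and plate 5 highest. The ratio of means (each with 0.1 TP10k added) was 7.03 in the Epi, 11.7 in the VE and 14.1 in the ExE comparison. The gene was detected in 95.2% to 98.9% of the cells of each compartment and in 91.5% to 100% of the cells of each culture, so the groups differed in amount and hardly in the share of cells with any reads.

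**Figure D1:**
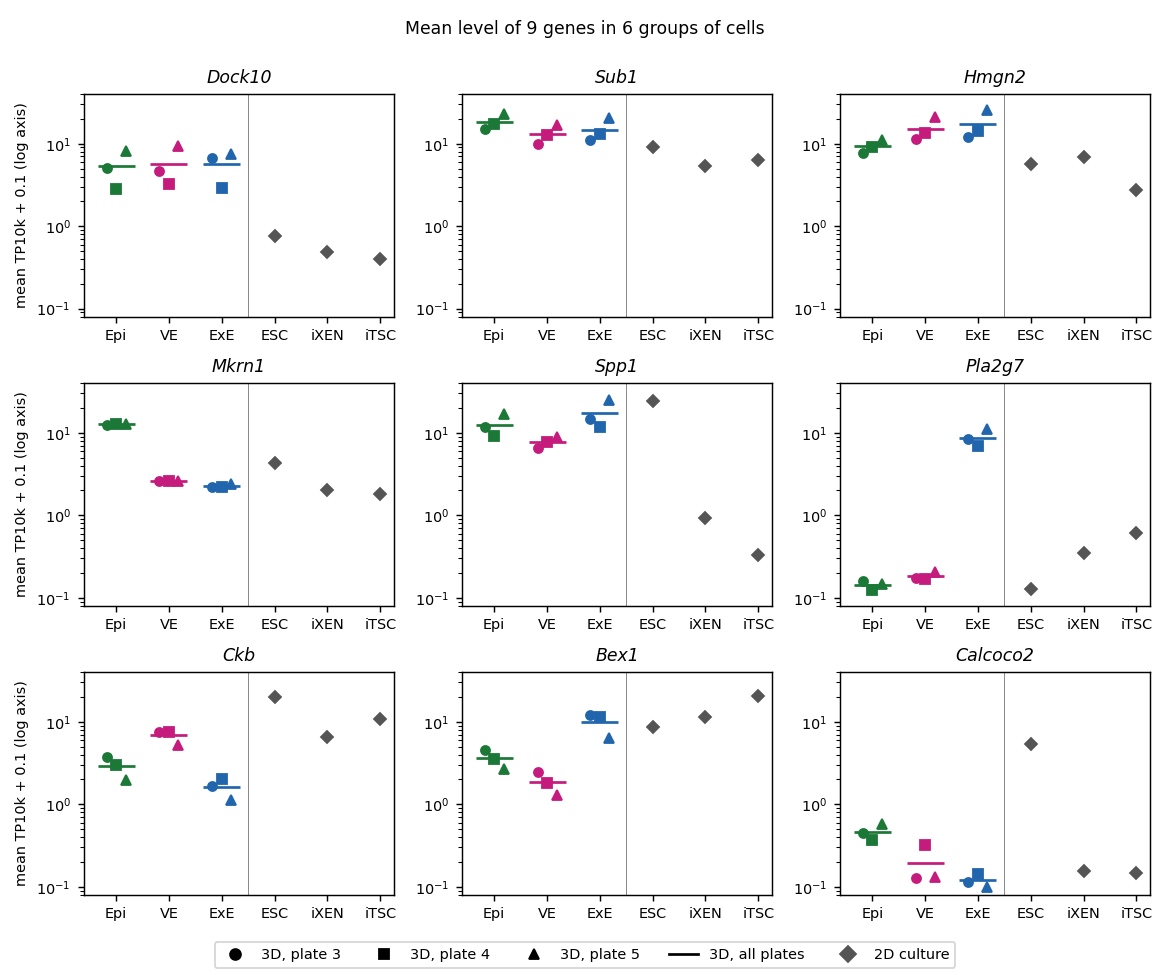
Mean TP10k plus 0.1 (log axis) of the 9 genes in the 3 compartments of 3D cells and in the 3 2D cultures. Points are the 3 plates of 3D cells, lines the mean over all 3D cells of a compartment, and diamonds the single 2D plates; Dock10 is high in every 3D group, whereas Mkrn1 is high in Epi columns and Pla2g7 in ExE columns.

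Sub1 was high in all groups and higher in 3D. Its Epi means were 15.1, 17.2 and 23.01 TP10k on plates 3, 4 and 5, against 9.13 in ESC. Its VE means were 9.75, 12.7 and 16.9, against 5.21 in iXEN cells. Its ExE means were 10.97, 13.1 and 20.1, against 6.21 in iTSC. All 9 plate means lay above the highest 2D culture, the lowest of them, on plate 3 of the VE columns, by a small margin. Ratios of means were 2.01, 2.46 and 2.34 in the Epi, VE and ExE comparisons. Hmgn2 had the same direction with an uneven size. Its ExE means of 12.1, 14.1 and 25.8 on plates 3, 4 and 5 stood against 2.67 in iTSC, a ratio of 6.24. Its VE means of 11.3, 13.2 and 20.8 stood against 6.85 in iXEN cells, a ratio of 2.15, and its Epi means of 7.54, 9.13 and 10.9 against 5.59 in ESC, a ratio of 1.64. The low level in iTSC thus set the ExE comparison apart, since ESC and iXEN cells were closer to each other. The Sub1 ratio of the Epi comparison lay next to the 2-fold line, and its log2 value of 1.01 was 0.82 without plate 5. Without that plate the log2 ratio was 0.94 for Sub1 in ExE and 0.83 for Hmgn2 in VE. The pseudogene Hmgn2-ps1 was listed at 0.0417 TP10k or less in each group.

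The regions upstream of Dock10, Sub1 and Hmgn2 are shown because these genes had higher means in 3D in all 3 comparisons and at least 2-fold higher means in 2 or more of them, a choice made after their values were seen. Mkrn1 was also higher in all 3, but past 2-fold in the Epi comparison alone. The sequences are those upstream of the start site in RefSeq (GRCm38.p6), on the minus strand and written 5′ to 3′, up to the first base annotated as exon. The windows of Sub1 and Hmgn2 lie inside the Gencode spans of these genes given below, whose 5′ ends are farther upstream. Capitals mark every match to the TATA box TATAAA, the sequence CCAAT of the CAAT box, the GC box GGGCGG, the E-box CACGTG, the shorter ACGTG within it, or the site TGACTCA known for AP-1, on either strand. Dock10 lies at chr1:80501073-80758527, Sub1 at chr15:11981339-11996983 and Hmgn2 at chr4:133964738-133968650 (Gencode vM21, minus strand). Of the others, Mkrn1 lies at chr6:39397804-39420462, Spp1 at chr5:104435118-104441050, Pla2g7 at chr17:43568098-43612201, Ckb at chr12:111669361-111672338, Bex1 at chrX:136213972-136215513 and Calcoco2 at chr11:96099326-96111964, all 9 being protein-coding genes.
Dock10 (chr1:80758554-80758803): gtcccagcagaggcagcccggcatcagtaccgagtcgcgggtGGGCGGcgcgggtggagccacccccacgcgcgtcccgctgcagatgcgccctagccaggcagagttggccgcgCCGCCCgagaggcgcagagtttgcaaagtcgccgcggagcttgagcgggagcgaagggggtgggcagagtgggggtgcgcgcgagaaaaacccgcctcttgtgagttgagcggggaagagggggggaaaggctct
Sub1 (chr15:11996059-11996257): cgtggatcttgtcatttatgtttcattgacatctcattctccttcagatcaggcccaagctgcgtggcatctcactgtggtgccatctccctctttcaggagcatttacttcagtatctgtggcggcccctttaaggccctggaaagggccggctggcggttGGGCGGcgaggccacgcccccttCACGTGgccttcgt
Hmgn2 (chr4:133968002-133968241): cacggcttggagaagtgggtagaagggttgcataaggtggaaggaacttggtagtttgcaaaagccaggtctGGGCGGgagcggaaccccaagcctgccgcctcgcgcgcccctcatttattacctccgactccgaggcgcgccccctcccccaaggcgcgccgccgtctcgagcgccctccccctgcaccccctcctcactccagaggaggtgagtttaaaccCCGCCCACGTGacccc

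Sub1 and Hmgn2 each held CACGTG, the E-box, which was present in 7.15% of all 32851 promoters of 300 bases in the RefSeq table, and Dock10 did not. Bex1, which was lower in 3D, held CACGTG as well. CACGTG contains ACGTG on both strands, and in Hmgn2 it shares 1 base with a neighbouring GGGCGG match. GGGCGG was present in 35.7% of all promoters and in the promoters of all 3 genes. These matches are a description of the letters in the window. The table held a promoter for 8 of the 9 genes.

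Dock10 levels also depended on where in the plate a cell was sorted. On plate 3 the median of the cells in a well row ran from 0.479 TP10k in row B to 9.66 in row H. On plate 4 it ran from 0.186 in row A to 4.58 in row N, and on plate 5 from 5.51 in row E to 8.997 in row N. Rows A and E were among the 3 lowest rows on each plate, and each row spans all 3 compartments. After removal of the mean of each plate and compartment, the well row accounted for 42.5% of the remaining variance of ln(TP10k + 1), rank 1 of 7886 genes detected in at least 25% of 3D cells. The median gene had 4.69% and the second gene 18.2%. The well column accounted for 5.72% of that variance of Dock10, against a median of 6.42% over all genes.

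The dependence on the row was seen on each plate. On its own, the row share of Dock10 was 51.01% on plate 3 (rank 1 of 7886 genes), 39.4% on plate 4 (rank 1) and 13.6% on plate 5 (rank 11). On the 2D plates, whose cells lay in rows A to F, it was 11.9% in ESC (rank 54 of 10984 genes), 23.4% in iXEN cells (rank 4 of 10268) and 24.7% in iTSC (rank 1 of 10537), with medians over genes between 3.31% and 3.44%. Of all genes, 0.139% had at least 10% of the variance between rows in 3D cells. The other members with enough detection had 4.01% to 5.86%, close to the median gene. In iXEN cells Sub1 also had a high row share, 18.4% (rank 11).

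Rows of a pair tended to differ in the same direction. When rows were taken in pairs (A and B, C and D, and on), the second row had the higher Dock10 median in 7 of 8 pairs on plate 3, 7 of 8 on plate 4 and 8 of 8 on plate 5. It did so in 3 of 3 pairs in each 2D culture. Over 16 rows the medians of plates 4 and 5 had a Spearman correlation of 0.694, those of plates 3 and 4 of 0.585, and those of plates 3 and 5 of 0.376. No cause of the row pattern was tested. With the 3D cells restricted to rows A to F, the rows that hold 2D cells, the log2 ratio of Dock10 was 2.49 in the Epi, 3.32 in the VE and 3.71 in the ExE comparison, against 2.81, 3.55 and 3.82 over all rows. This restriction was chosen after seeing the data.

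**Figure D2:**
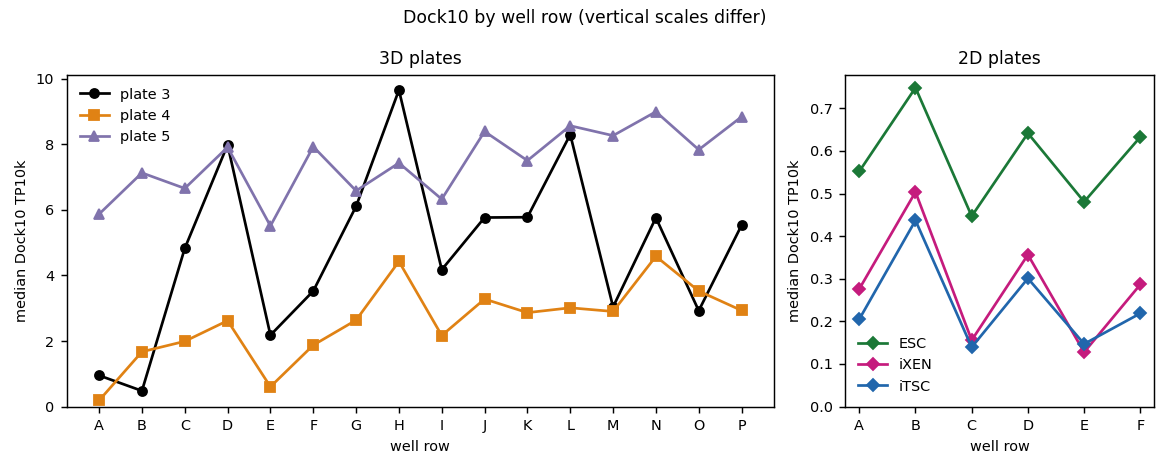
Median Dock10 TP10k of the cells in each well row, for plates 3, 4 and 5 of 3D cells (left, rows A to P) and for the 3 2D plates (right, rows A to F, on a smaller vertical scale). Within the pairs A and B, C and D, and on, the second row is higher in 7, 7 and 8 of 8 pairs on plates 3, 4 and 5, and on plate 3 the medians run from 0.479 to 9.66.

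The plates of 3D cells also differed as wholes. Across the 9 means of 3 compartments on 3 plates, on the log2(TP10k + 0.1) scale, the plate accounted for 93.3% of the sum of squares of Dock10 and the compartment for 0.673%. Over all 7886 genes the median was 10.8% for the plate and 71.6% for the compartment. Dock10 was lowest on plate 4 and highest on plate 5 in each compartment, with 2.57-fold to 2.92-fold between them. It was the single gene of 7886 (0.0127%) with the same highest and lowest plate in all compartments and at least 2-fold between them in each. Plate accounted for 67.6% of the sum of squares of Sub1 and 45.3% of that of Hmgn2, and both were ordered plate 3 below plate 4 below plate 5 in all compartments. Bex1 had the reverse order in all compartments, with 11.7% for the plate. The median number of genes per cell was 5710, 4448 and 4199 on plates 3, 4 and 5 in Epi columns, 6622, 4913 and 4957 in VE columns and 6683.5, 5126 and 4551.5 in ExE columns, and its part in these orders was not tested.

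**Figure D3:**
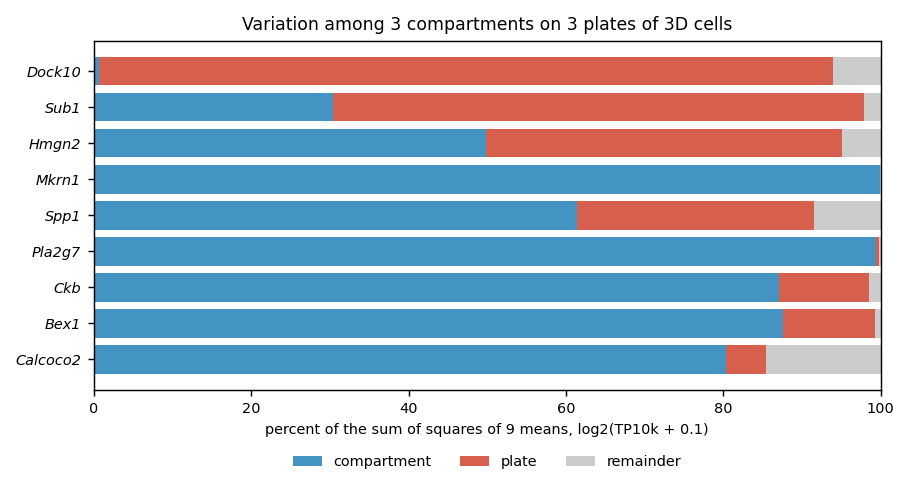
Share (percent) of the sum of squares of 9 means on the log2(TP10k + 0.1) scale that lies between the 3 compartments (blue), between the 3 plates (red) and in neither (grey), for each gene. Plate takes 93.3% for Dock10 and 0.0306% for Mkrn1.

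Mkrn1 was the opposite case, with almost nothing between plates. Its Epi means were 12.4, 12.7 and 12.7 TP10k on plates 3, 4 and 5, against 4.19 in ESC, a ratio of 2.97. In VE columns they were 2.505, 2.52 and 2.49, against 1.91 in iXEN cells, and in ExE columns 2.10, 2.09 and 2.29, against 1.69 in iTSC. Mkrn1 was thus an Epi-column gene in 3D, and ESC ranked second among the 6 groups. The compartment accounted for 99.9% of the sum of squares of its 9 means. Its quartiles over Epi cells were 8.29 and 16.2 TP10k, which did not overlap with those of ESC (2.86 and 5.29). A processed pseudogene, Mkrn1-ps1, is listed in the table at 0.00230 TP10k or less in each group, although kallisto could have assigned shared reads to either copy.

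Spp1 differed in direction between the comparisons. In ExE columns its means were 14.7, 11.7 and 24.99 TP10k on plates 3, 4 and 5, against 0.229 in iTSC. In VE columns they were 6.37, 7.69 and 8.83, against 0.813 in iXEN cells. In Epi columns they were 11.6, 8.92 and 16.7, against 24.1 in ESC, where Spp1 was highest of all groups. The ratio of means was 52.0 in ExE, 8.40 in VE and 0.517 in Epi, and the 3 plates lay on one side of the culture in each case. Spp1 was detected in all 142 ESC, but in 87.9% of Epi cells (exact 95% interval 83.8 to 91.3), 72.4% of VE cells (67.1 to 77.2) and 53.0% of ExE cells (47.6 to 58.3). In ExE columns the mean rested on part of the cells: the median was 0.418 TP10k, the upper quartile 11.6 and the 95th percentile 105. The mean of ln(TP10k + 1), which gives less weight to such cells, brought the log2 ratio in the ExE comparison from 5.70 to 3.73.

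Pla2g7 was mainly an ExE-column gene. Its means there were 8.21, 6.72 and 11.1 TP10k on plates 3, 4 and 5, against 0.512 in iTSC, a ratio of 14.3. In VE columns they were 0.0747, 0.0668 and 0.106, against 0.244 in iXEN cells, a ratio of 0.528. The gene was detected in about the same share of ExE cells (70.0%, exact 95% interval 64.9 to 74.7) and of iTSC (67.4%, 59.0 to 75.0), while its levels differed. The median number of genes per cell was 5396 in ExE cells and 8537 in iTSC, and its part in these shares was not tested. The upper quartile was 14.6 TP10k in ExE cells and 0.586 in iTSC. In Epi columns and ESC it was detected in 4.78% and 13.4% of the cells, under the 25% needed for a comparison. The compartment accounted for 99.4% of the sum of squares of its 9 means.

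Ckb was lower in 3D in 2 of the comparisons. In Epi columns its means were 3.66, 2.87 and 1.85 TP10k on plates 3, 4 and 5, against 19.6 in ESC, where the ratio 2D over 3D was 6.85. In ExE columns they were 1.58, 1.90 and 1.02, against 10.8 in iTSC, a ratio of 6.82. In VE columns they were 7.497, 7.44 and 5.19, which lie on both sides of the 6.44 in iXEN cells. Ckb was detected in 49.6% of ExE cells (44.2 to 54.9) but in all 141 iTSC, and in 77.4% of Epi cells (72.4 to 81.9) against 99.3% of ESC (96.1 to 99.98).

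Bex1 was lower in 3D in all 3 comparisons. Its VE means were 2.33, 1.70 and 1.18 TP10k on plates 3, 4 and 5, against 11.2 in iXEN cells, a ratio 2D over 3D of 6.05. Its Epi means were 4.44, 3.49 and 2.58, against 8.62 in ESC, a ratio of 2.43. Its ExE means were 11.9, 11.4 and 6.18, against 20.4 in iTSC, a ratio of 2.05. The last of these lay next to the 2-fold line, with a log2 ratio of -1.04 that was -0.80 without plate 5 and -0.93 in the cells of the ExE columns whose own marker list led. In 3D and in 2D alike it was highest in the trophoblast-like group, since ExE was the highest compartment on each plate and iTSC the highest culture.

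Calcoco2 was an ESC gene in these data. Its mean was 5.24 TP10k in ESC, with 141 of 142 cells above 0. In Epi columns it was 0.350, 0.273 and 0.471 on plates 3, 4 and 5, with 19.4% of the cells above 0 (15.2 to 24.2), and the ratio 2D over 3D was 11.5. In all other groups its mean was at most 0.0935 and it did not reach the 25% needed for a comparison. By share of cells, iXEN came close to that limit (24.1%) and lay above the Epi columns, with 4.76% in VE columns. The VE mean of 0.0935 included 1 cell at 20.1 TP10k. On plate 5 of the ExE columns it was above 0 in 0 of 114 cells, which allows a share of up to 2.63% (3 counts of the total).

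Counted by one rule (at least 2-fold between means with 0.1 TP10k added, and the same side on all 3 plates, among genes detected in 25% or more of the cells on one side or the other), 3 of the 9 genes were higher and 3 lower in the Epi comparison. Since the genes were chosen for such differences, the shares over all genes stand here only for scale: 2.62% of 11022 genes were higher and 2.23% lower. In the VE comparison 4 were higher and 1 lower, where 0.943% and 1.70% of 10283 genes were. In the ExE comparison 5 were higher and 2 lower, where 3.97% and 3.14% of 10592 genes were. In each comparison 8 of the 9 passed the detection filter. The median log2 ratio of all genes was 0.05, 0.01 and 0.04. By the ratio of means used in this rule, Dock10 ranked 7, 1 and 4 from the top in the Epi, VE and ExE comparisons, and Sub1 287, 35 and 226. Ckb ranked 7 from the bottom in Epi and 10 in ExE, Bex1 11 in VE and Calcoco2 2 in Epi. Most ranks were nearer the ends by another measure. By the difference of mean ln(TP10k + 1), Dock10 ranked 2, 1 and 1 from the top in the Epi, VE and ExE comparisons. Ckb ranked 1 from the bottom in Epi and 2 in ExE, Bex1 ranked 2 from the bottom in VE, and Calcoco2 ranked 3 from the bottom in Epi. Sub1 ranked 17, 6 and 20 from the top.

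**Figure D4:**
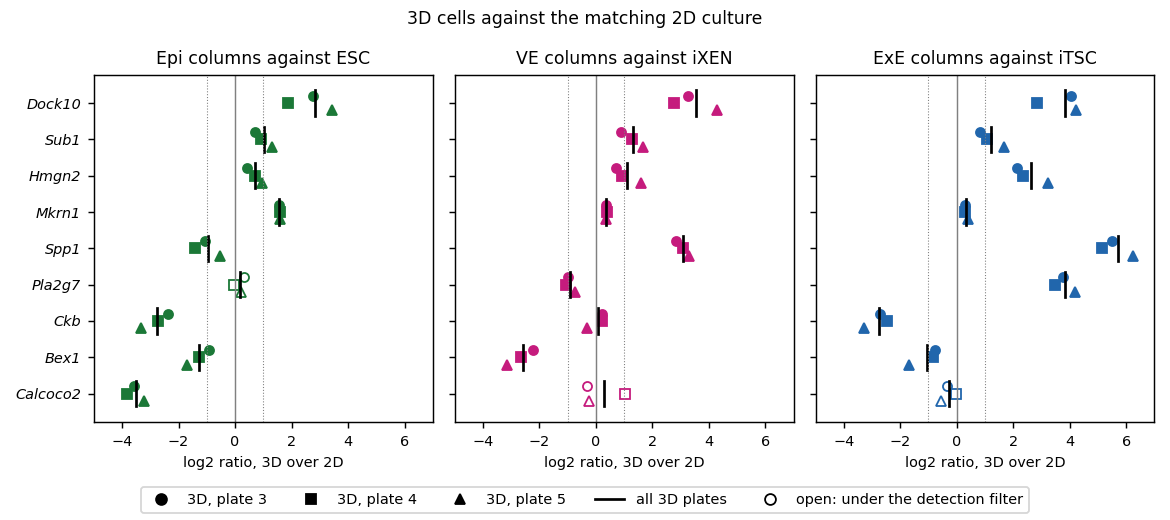
Log2 ratio of mean TP10k plus 0.1 in 3D over 2D for each gene, one panel per comparison, with points for plates 3, 4 and 5 and a black line for all 3D cells (dotted lines mark 2-fold, open points genes under the detection filter). Spp1 lies left of 0 in the Epi panel (-0.95) and right of it in the VE (3.07) and ExE (5.70) panels.

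The expression of the genes was then compared from cell to cell within each group. Spearman correlations were taken within each plate and averaged, over the 28 pairs of 8 genes (Calcoco2 was left out for low detection). The mean was at least 0.3 in size for 9 pairs in ExE columns, and for 0 pairs in Epi and 0 in VE columns. Pairs of other genes were not counted, so these counts are not read as particular to the 9 genes. The ExE columns were also the most mixed, with the own marker list on top in 70.5% of cells, against 99.4% in Epi and 98.7% in VE columns. The highest was that of Pla2g7 with Spp1, at 0.567 over 353 cells (0.505 to 0.610 on the 3 plates). Pla2g7 also went with Hmgn2 (0.462 to 0.533 on the plates). It went against Ckb (-0.565, from -0.590 to -0.528 on the plates) and Bex1 (-0.430), and Ckb and Bex1 went together (0.358). In VE columns Ckb and Bex1 went against each other (-0.244). In the 2D cultures, each on 1 plate, 1 pair reached 0.3 in size in ESC, 3 in iXEN cells and 0 in iTSC. Those in iXEN cells were Ckb with Bex1 (-0.396), Dock10 with Sub1 (0.369) and Sub1 with Hmgn2 (0.350).

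The ExE columns thus ran, by graded levels, from cells higher in Pla2g7, Spp1 and Hmgn2 to cells higher in Ckb and Bex1. The genes did not exclude each other: 231 of 353 cells had both Pla2g7 and Bex1, and 91 both Pla2g7 and Ckb. Pla2g7, Spp1 and Hmgn2 were higher in ExE columns than in iTSC, and Ckb and Bex1 lower. The genes were picked on such differences, so this axis is not independent of the choice. In counts of cells, 159 of 353 had both Pla2g7 and Spp1, 88 Pla2g7 alone, 28 Spp1 alone and 78 neither. Correlations with markers were taken over cells pooled from all plates. Pla2g7 went against the ExE markers Elf5 (Spearman -0.446), Eomes (-0.304) and Krt18 (-0.524), and with Cdx2 (0.286). The other ExE markers were weaker, at -0.220 for Tfap2c, -0.190 for Krt8, -0.0274 for Cd40 and 0.0535 for Gata3. Pla2g7 also went against the VE markers Sparc (-0.480) and Amn (-0.311) and the Epi marker Pou5f1 (-0.247). Elf5 and Eomes are transcription factors of the trophoblast stem cell state, as is Cdx2. On the separate plates the correlation of Pla2g7 with the number of genes per cell was between -0.360 and -0.247 and that of Ckb between 0.262 and 0.348; the part of this number in the pattern was not tested. In VE columns the pooled correlation of Dock10 with Hmgn2 was 0.419, but within plates it ran from -0.0260 to 0.315. The mean within plates of Dock10 with any of the other genes lay between -0.141 and 0.165 in the 3D groups.

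**Figure D5:**
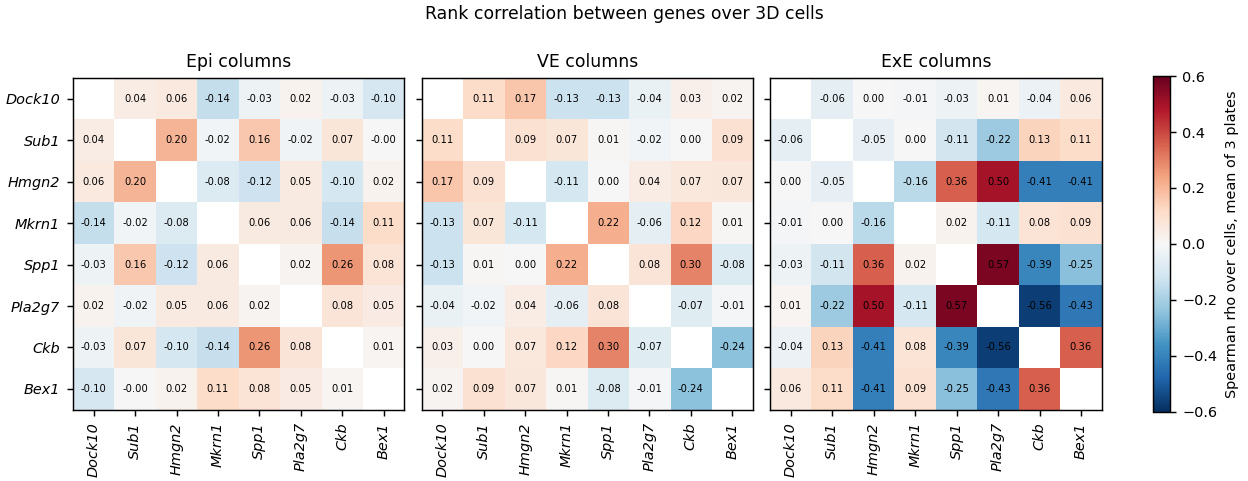
Spearman correlation between 8 genes over single cells in the Epi, VE and ExE columns, each value the mean of 3 plates. Colours are strong in the ExE panel, where Pla2g7 has 0.567 with Spp1 and -0.565 with Ckb, and pale in the other panels.

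The axis was also set beside the marker list that led in each cell. In the 249 cells of the ExE columns with the ExE list on top, Pla2g7 averaged 8.36 TP10k (median 2.83), Spp1 16.3 (0.234), Ckb 1.60 and Bex1 10.6. In the 64 cells with the Epi list on top, Pla2g7 averaged 11.4 (median 9.59), Spp1 24.7 (2.59), Ckb 0.802 and Bex1 7.54. In the 40 cells with the VE list on top, Pla2g7 averaged 6.03 (median 2.83), Spp1 9.32 (listed at 0), Ckb 2.02 and Bex1 9.08. Cells led by the Epi list thus lay towards the Pla2g7 and Spp1 end in these 4 genes. Hmgn2, also on that end of the axis, showed little such shift. Its mean was 17.2 TP10k in cells led by the ExE list, 17.6 with the Epi list and 16.6 with the VE list. Its median was highest in cells led by the VE list (15.5, against 14.6 with the Epi list). Over all 353 cells, however, Pla2g7 went against the Epi marker Pou5f1 (-0.247, from -0.288 to -0.214 on the plates). Of the Epi list sum of 2.89 TP10k in ExE columns, Zfp42 made up 2.10 and Pou5f1 0.331. In Epi columns Pou5f1 had 14.2. Which genes of the list led in the 64 cells was not examined. The mean of Pla2g7 and of Spp1 was above that of iTSC in all 3 sets of ExE-column cells. Since the genes were selected on 3D to 2D differences, this is no separate support.

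The 9 genes were set beside related genes. Over all genes tested, 2.62% were higher and 2.23% lower in the Epi, 0.943% and 1.70% in the VE and 3.97% and 3.14% in the ExE comparison, and with so few genes in a list nothing particular to a list is drawn from its counts. Of the 11 listed DOCK family members 8 passed the filter in the Epi and ExE comparisons and 7 in the VE comparison. Apart from Dock10 none was 2-fold different in the Epi or VE comparison, and in the ExE comparison Dock9 was higher (log2 ratio 1.12) and Dock6 lower (-1.01). The other DOCK genes had a median log2 ratio of 0.31, 0.06 and 0.21 in the Epi, VE and ExE comparisons, beside medians of all genes of 0.05, 0.01 and 0.04.

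In the creatine system, 3 of 4 genes that passed were lower in the Epi comparison (2.23% of all genes were), 0 of 3 in the VE and 1 of 2 in the ExE comparison, where it was Ckb. Ckb was chosen for this difference, and beside it in the Epi comparison were Ckmt1, a mitochondrial creatine kinase (-1.20), and Slc6a8, the creatine transporter (-1.10). Of the 10 osteopontin receptors listed, 5 or 6 passed and 0 differed 2-fold in any comparison. In platelet-activating factor metabolism, Pafah1b3, a subunit of the intracellular acetylhydrolase, was higher in the ExE comparison (1.21) with Pla2g7, and Lpcat1, an acyltransferase that makes the lipid, was lower (-1.08).

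Among 11 autophagy receptors in the Epi comparison, Calcoco2 was lower while Optn (2.11) and Bnip3 (2.27), receptors for mitochondria, were higher. Of the HMG-family genes, Hmgb3 was higher in the VE (1.35) and ExE (1.17) comparisons, as Hmgn2 was, Hmgn5 was higher in the Epi comparison (2.10) and Hmga1 lower in the ExE comparison (-1.12). Of the 14 general transcription factors and coactivators, Sub1 was the single one that differed 2-fold in the VE and ExE comparisons, and Gtf2b was lower in the Epi comparison (-1.07). The other makorin that passed had log2 ratios of -0.29, -0.24 and -0.30. Of the BEX and TCEAL family, Bex4 was lower in the VE comparison (-1.03), as Bex1 was, and Bex2 was higher in the ExE comparison (2.97), where Bex1 was lower.

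Genes of stress and dissociation were counted because cells were dissociated with enzyme. Of the 12 that passed in the Epi comparison Ddit3 was higher (1.27) and 2 were lower, of the 14 in the VE comparison Ier3 was lower (-1.98), and of the 16 in the ExE comparison 5 were lower and 0 higher, where 3.14% and 3.97% of all genes were. The 5 were Fos (-2.12), Dusp1 (-1.10), Nr4a1 (-1.75), Hspb1 (-1.31) and Hsp90aa1 (-1.44). Their part in the differences of the 9 genes was not tested.

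The genes with the most similar pattern were found by Pearson correlation of log2(mean TP10k + 0.1) over 12 points (9 compartment and plate means and 3 cultures), among 11962 genes. They were Syf2 (0.948) and Mcc (0.948) for Dock10, Cox7c (0.978) and Ppid (0.971) for Sub1, and Maged2 (0.954) and Wbp4 (0.949) for Hmgn2. They were Pitpnc1 (0.987) and Pdzd4 (0.984) for Mkrn1, Cbx3 (0.926) and Hypk (0.925) for Spp1, and Jak1 (0.992) and Hoxa9 (0.987) for Pla2g7. For Ckb they were Tk1 (0.965) and Uck2 (0.955), for Bex1 Pik3cd (0.959) and Cnn2 (0.949), and for Calcoco2 Enoph1 (0.980) and Arl14epl (0.965). The points share plates and pools, so these values describe likeness and carry no test. The likeness was one of shape and not of size: Syf2 ran from 0.358 TP10k in iTSC to 0.947 on plate 5 of the Epi columns, a much narrower range than that of Dock10.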

How the data were processed

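SMART-seq2 libraries of sorted single cells were pseudoaligned by the authors to the mouse transcriptome (GRCm38, Gencode) with kallisto after demultiplexing with bcl2fastq 2.20, as named in the submitters' processing notes and the study's methods, and summarised per gene. The deposited values are TPM, filtered by the authors, for 20999 genes and 1931 wells. TPM keep no read depth, so precision rests on the number of cells. Wells without values (39) count as 0. Here TPM were rescaled to a sum of 10000 per cell (TP10k), wells with fewer than 2500 genes above 0 were left out (1406 cells remained), and means were compared as log2 ratios with 0.1 TP10k added, in Python 3.11.15 with numpy 2.4.6, pandas 2.3.3 and scipy 1.17.1. Intervals of shares are exact (Clopper-Pearson), and the limit for a count of 0 is 3 counts of the total. No test was run, since each condition is 1 sample. No doublet caller was run, since wells were sorted as single cells. The 9 genes and all gene lists were chosen with earlier results of these data known. Named genes are the 9, those of the lists called 2-fold, and per gene the 2 most similar over 12 points. Alternatives varied the cell minimum, averaging, pseudocount, detection filter, plates, cell selection and well rows, and the closing section gives their effect. Gene positions came from Gencode vM21 and promoters from RefSeq (GRCm38.p6). The result of 1 gene list is not reported here.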

Additional observations from a re-analysis of the deposited data

Results flagged for a closer look

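Spp1 differed from 2D in opposite directions in different compartments, and all 3 plates lay on one side each time. Its log2 ratio was -0.95 in the Epi comparison, 3.07 in the VE comparison and 5.70 in the ExE comparison. The difference between compartments was not tested. Pla2g7 did the same with -0.92 in the VE comparison and 3.84 in the ExE comparison, also not tested, where the VE ratio rests on levels of 0.0817 and 0.244 TP10k.

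Dock10 had a signal in 3D wells that were not used. Of 166 such wells with fewer than 2500 genes but at least 1 gene above 0 (median 19.5 genes), 40 had Dock10 above 0, or 24.1% (exact 95% interval 17.8 to 31.3). In 288 such wells of the 2D plates (median 5 genes), it was above 0 in 4, or 1.39% (0.380 to 3.52). The 2 sets of wells are not alike. Kept 3D cells lay in all 16 rows, and kept 2D cells in 6 rows (A to F). The 2D plates had 317 (ESC), 283 (iTSC) and 182 (iXEN) listed wells, so most unused 2D wells lay outside those rows. The 2 shares therefore cannot be compared directly. By share of the 3D wells Dock10 ranked 31 over genes. Sub1 was above 0 in 34 of the 3D wells and 9 of the 2D wells, Hmgn2 in 30 and 4, and Mkrn1 in 21 and 3. Bex1 was above 0 in 14 and 8 and Pla2g7 in 5 and 0. Spp1 was above 0 in 21 and 17, Ckb in 16 and 19 and Calcoco2 in 0 and 6.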

How the results depend on the processing

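Each ratio was recomputed under 13 alternatives and under 3 selections of well rows, the latter chosen after seeing the data. Of 384 recomputed log2 ratios of the 9 genes, 331 moved by less than the SD over the 3 plates, 53 by more and 0 turned their sign where a call had been made. The calls of Dock10 in all 3 comparisons, Mkrn1 and Calcoco2 in Epi, Ckb in Epi and ExE, Spp1 in VE and ExE, Pla2g7 and Hmgn2 in ExE, Sub1 in VE and Bex1 in Epi and VE held under all 16. Calls near 2-fold did not. Sub1 in Epi was lost under 8 settings, with log2 ratios from 0.65 to 0.98, and in ExE without plate 5 (0.94). Hmgn2 in VE was lost without plate 5 (0.83) and in rows A to F (0.94). Spp1 in Epi became a call under 7 settings, from -1.70 to -1.003.

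Of the 9 genes, the number lower in ExE went from 2 to 1, by the loss of Bex1, with a minimum of 4000 genes (-0.96), with means of the deposited TPM (-0.87), with a pseudocount of 1 (-0.97), in cells with 5000 to 8000 genes (-0.75), in cells whose own marker list led (-0.93), without plate 5 (-0.80) and in rows B, D, F and on (-0.89). The number lower in VE went from 1 to 2, by Pla2g7, with the trimmed mean (-1.32), in cells with 5000 to 8000 genes (-1.04) and without plate 5 (-1.01).

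Counts over all genes moved more. Means of deposited TPM gave 218 genes lower in ExE (333 as reported). The trimmed mean gave 187 higher and 474 lower in Epi (289 and 246), 295 lower in VE (175) and 501 lower in ExE. The mean of ln(TP10k + 1) gave 138 higher and 405 lower in Epi, 48 higher in VE (97) and 199 higher in ExE (420). A pseudocount of 1 gave 24 and 35 in Epi, 14 and 31 in VE and 59 and 51 in ExE, since it shrinks the ratios of low genes. Cells with 5000 to 8000 genes gave 944 and 632 in Epi, where only 6 ESC were left. No paired analysis was possible because each condition is 1 sample and no test was run. TPM carry no read counts, so the depth behind a value is unknown.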
